A study of Mus musculus with 2 samples.

Results

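The core circadian clock genes are the small set of transcription factors and inhibitors whose feedback loops keep daily time inside the cell. They were taken as 10 listed genes, Arntl, Clock, Npas2, Cry1, Cry2, Per1, Per2, Per3, Nr1d1 and Nr1d2, and 9 of them were measured among 19938 genes in all. A gene was measured where a probe, meaning a probe set that stands for a transcript, was annotated to that gene's symbol alone. No probe met this for Npas2, which is not analysed here. Each of the 9 measured genes had 1 probe, so no member has a repeat measurement.

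The FHL2-/- pool came from mice so labelled, which carry a targeted allele of Fhl2, whose product is a LIM-only adaptor that partners with many nuclear and cytoplasmic factors. It was set against a wild-type (WT) pool. Both pools combined liver RNA of 3 male mice aged 10 to 11 weeks, taken from the left lobe, on a hybrid Black Swiss/129-SV/J background. Each pool was hybridised to 1 Affymetrix array, so there is no replicate and no test, and the variation from mouse to mouse, which also enters the difference between pools of this size, cannot be measured. The time of day at dissection, the lighting and the feeding of the mice are absent from the descriptions used here, and their part in the results was not tested.

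In the mouse, ARNTL (also called BMAL1) pairs with CLOCK or its relative NPAS2 and activates genes that carry E-box elements, among them the Per, Cry and Nr1d genes. PER and CRY proteins then inhibit the ARNTL and CLOCK pair, which closes the first loop. NR1D1 and NR1D2, also called REV-ERB alpha and beta, are nuclear receptors that repress Arntl and other genes through ROR elements and so close a second loop. In mouse liver most of these transcripts rise and fall over the day, with Arntl and Nr1d1 at nearly opposite times and Clock with a shallow rhythm.

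All values are levels as deposited, assumed to be on the log2 scale. Every difference is the FHL2-/- pool minus the WT pool on that scale. Levels of different genes come from different probes and are not set against each other. Medians over all probes were 5.71 in the FHL2-/- pool and 5.76 in the WT pool. All 10 of the hepatocyte markers examined lay above the level filter, the 40th percentile of probes with 1 gene symbol, which was 5.44. Fhl2 itself was at 5.33 in the FHL2-/- pool and 5.30 in the WT pool, below that filter, and the deleted exons are not named in the labels, so its probe does not check the genotype. Past the filter were 11924 genes, with a median difference of 0.04 and 59.5% of them above 0. The SD of the difference between probes of the same gene was 0.143, taken over 1809 probes of 660 genes, all past the filter. It pools all levels and holds whatever differs between probes of a gene, without the variation of mice or hybridisations.

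In the FHL2-/- pool, Arntl and Cry1 were lower than in the WT pool by about the same amount, while Per1 was higher. Nr1d1, Per3 and Nr1d2 were above 0 by 0.24, 0.18 and 0.18, and Per2, Clock and Cry2 differed by less than the SD between probes. None of the members reached 1.5-fold, which 0.956% of all genes past the filter did. At a smaller threshold, a difference of at least 0.32 on the log2 scale in either direction, there were 3 of 9, with 1 higher and 2 lower, against 8.69% of all genes in either direction, 4.89% higher and 3.8% lower. Because the members were chosen with earlier results of these data known, this comparison cannot show an excess among them. With both arrays shifted to a common median, higher genes made up 73.3% of all genes past 0.32 (882 against 321), compared with 56.3% (583 against 453) as deposited. The member differences ran from -0.51 to 0.43, with a median of 0.13, and 5 of the 9 were above 0.

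**Figure D1:**
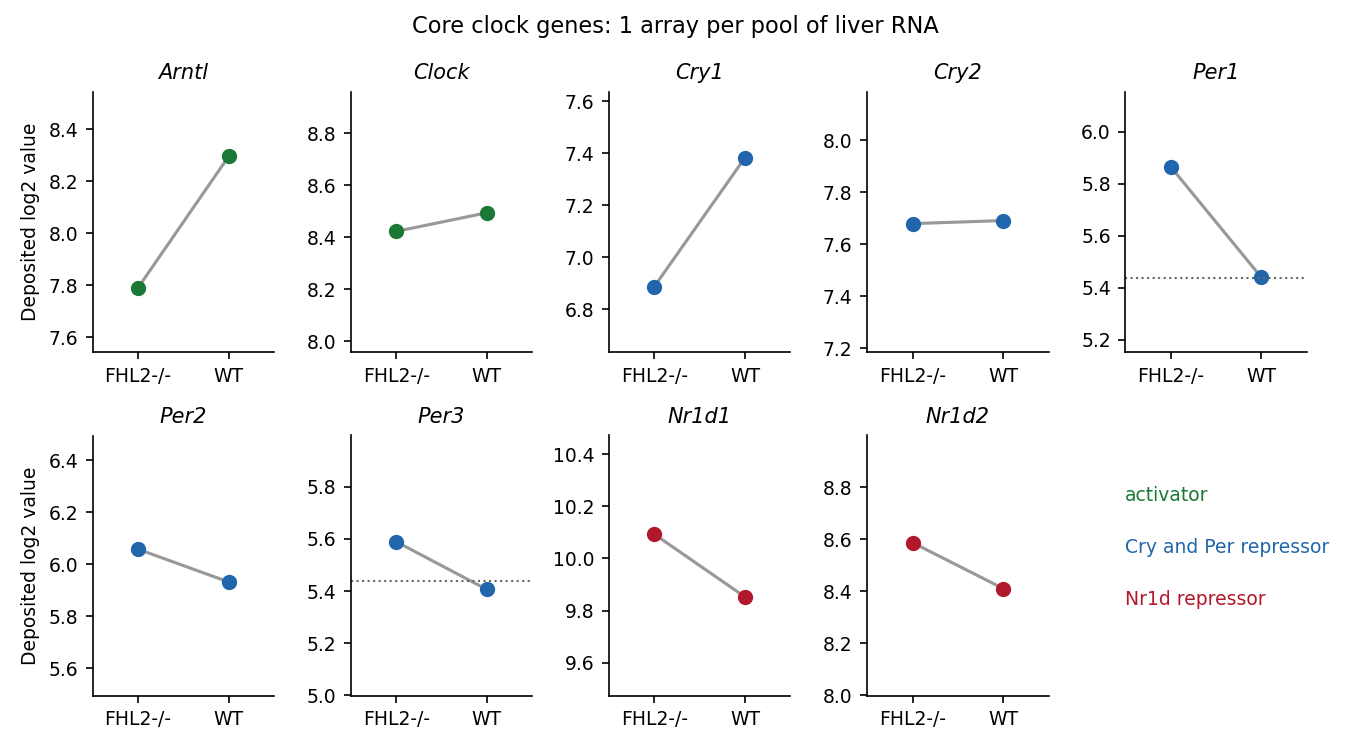
Deposited log2 level of each measured core clock gene in the FHL2-/- pool (left point) and the WT pool (right point), 1 array each. Every panel spans 1 log2 unit, and the dotted line is the level filter at 5.44. Arntl and Cry1 lie lower in the FHL2-/- pool, Per1 lies higher, Per3 and both Nr1d genes differ by 0.18 to 0.24, and Per2, Clock and Cry2 by less than the SD between probes.

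The activator arm was represented by Arntl and Clock. Arntl, whose protein is the partner without which CLOCK does not drive E-box genes, was at 7.79 in the FHL2-/- pool and 8.29 in the WT pool. It was therefore 1.42-fold lower, a difference of -0.51 that is 3.53 times the SD between probes. Of all 11924 genes past the filter, 0.704% were as low or lower. Among the 2496 genes whose mean level lay within 0.5 of that of Arntl, the share was 0.321%. Clock, which encodes the DNA-binding partner of ARNTL, was at 8.42 in the FHL2-/- pool and 8.49 in the WT pool. Its difference of -0.07 was smaller than the SD between probes, and 25.5% of all genes were as low or lower. The activator genes thus differed unequally, with the difference of Clock 0.43 above that of Arntl, a gap that no common shift of an array can change. The median of the arm was -0.29, which with these genes is the midpoint between them. Npas2, the relative of Clock without a value, lies on chromosome 1 with Fhl2, with 63 annotated genes between them.

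The letters of the Arntl promoter are shown because Arntl is the member through which NR1D receptors act in the second loop. Promoter windows from RefSeq (GRCm38.p6), with 250 bases before and 50 after a transcript start, were found for 9 of the 10 genes, as 13 windows. They were searched on both strands for CACGTG (the E-box), TTANGTAA (the D-box, where DBP and NFIL3 bind) and TAGGTCA (a ROR element core). These motifs do not share letters in any match found. A ROR element core was found in 1 of the 13 windows, against 2.61% of all 32851 promoter windows. It lies in 1 of the 2 windows of Arntl, with its first base at position 31 after the start. The stretch lies on the plus strand at chr7:113207531-113207557, downstream of that start, and capitals mark the match.

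Arntl: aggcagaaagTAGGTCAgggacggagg

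The repressor arm held 7 measured genes, with a median difference of 0.18 and a mean of 0.09, and 5 of them were above 0. Among all genes past the filter, 59.5% were above 0 and the median was 0.04. The members of the arm did not differ alike. The Cry genes encode the strongest inhibitors of the ARNTL and CLOCK pair. Cry1 was at 6.89 in the FHL2-/- pool and 7.38 in the WT pool, a difference of -0.50, or 1.41-fold lower. This was 3.46 times the SD between probes, and 0.797% of all genes were as low or lower. Cry2 was at 7.68 in the FHL2-/- pool and 7.69 in the WT pool, and its difference of -0.01 became 0.03 after a shift to a common median, so it has no settled direction. The paralogues therefore stood 0.48 apart in their differences. Cry1 differed from Arntl by 0.01 on the same measure. Of these Cry genes, Cry1 is the one known in mouse to be repressed through ROR elements like Arntl, besides being driven through E-boxes. The promoter window of Cry1 searched here held no ROR element core. Whether such repression has a part in the difference of Cry1 was not tested.

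The Per genes, whose proteins carry CRY into the nucleus and are induced by hormones and feeding as well as by the clock, all had differences above 0, of unequal size. Per1 was at 5.86 in the FHL2-/- pool and 5.44 in the WT pool, 1.34-fold higher. The difference of 0.43 was 2.97 times the SD between probes, and 1.89% of all genes were as high or higher. Per3 was at 5.59 in the FHL2-/- pool and 5.41 in the WT pool, a difference of 0.18. Per2 was at 6.06 in the FHL2-/- pool and 5.93 in the WT pool, and its difference of 0.13 was smaller than the SD between probes. As high as Per3 or higher were 18.0% of all genes, and 28.7% were as high as Per2 or higher. All 3 Per probes were dim. Per3 in the WT pool lay below the level filter and passed it through its FHL2-/- value, and Per1 in the WT pool lay at the filter, so the sizes of their differences are uncertain. Per2 shares chromosome 1 with Fhl2, with 801 annotated genes between them.

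The Nr1d genes, the repressors of the second loop, both had differences above 0 and under 0.32. Nr1d1 was at 10.09 in the FHL2-/- pool and 9.85 in the WT pool, a difference of 0.24, or 1.18-fold. This was 1.68 times the SD between probes. Of all genes 10.6% were as high or higher, and of the 804 genes within 0.5 of its mean level 4.60% were. Nr1d2 was at 8.59 in the FHL2-/- pool and 8.41 in the WT pool, a difference of 0.18, or 1.13-fold, and 19.1% of all genes were as high or higher. These paralogues lay within 0.06 of each other. Set against Arntl, which NR1D receptors repress, the difference of Nr1d1 was 0.75 higher and that of Nr1d2 0.68 higher. The difference of Per1 was 0.93 above that of Arntl and 0.92 above that of Cry1, gaps whose size is uncertain because the WT value of Per1 lies at the level filter.

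**Figure D2:**
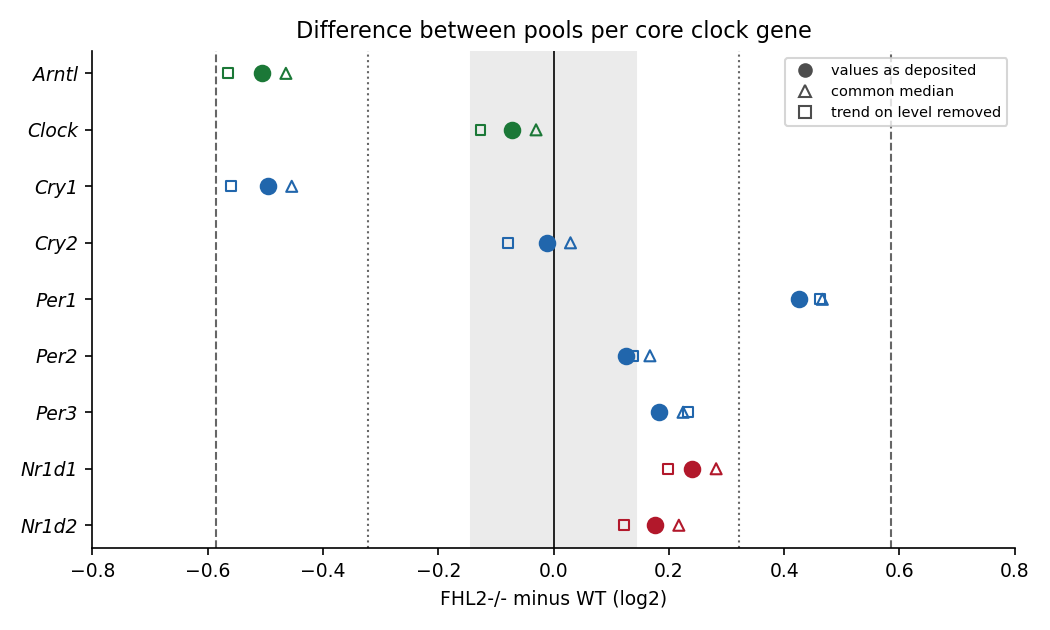
FHL2-/- minus WT difference (log2, horizontal axis) of each measured core clock gene, as deposited (filled circles), after a shift to a common median (triangles) and with the trend on level removed (squares). The grey band is the SD between probes of the same gene, 0.143 on either side of 0, dotted lines mark 0.32 on either side of 0 and dashed lines 1.5-fold. Arntl, Cry1 and Per1 lie past the dotted lines under each of these settings, and no member passes 1.5-fold.

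The promoter windows that held a match among the repressor genes are shown because they carry the elements through which the activators (E-box) and the output factors (D-box) are known to act. Exact E-boxes were found in 2 of the 13 windows, of Cry1 and Per1, against 7.15% of all promoter windows. The first base of the match lay 60 bases before the start in Cry1 and 166 bases before the start in 1 of the 2 windows of Per1. D-boxes were found in 1 of the 13 windows, that of Per3, at 205 and 158 bases before the start, against 2.32% of all windows. Each line gives the 250 bases before the start in the direction of the gene, with matches in capitals. Cry1 lies on the minus strand at chr10:85185055-85185304, Per1 on the plus strand at chr11:69098699-69098948 and Per3 on the minus strand at chr4:151044666-151044915.

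Cry1: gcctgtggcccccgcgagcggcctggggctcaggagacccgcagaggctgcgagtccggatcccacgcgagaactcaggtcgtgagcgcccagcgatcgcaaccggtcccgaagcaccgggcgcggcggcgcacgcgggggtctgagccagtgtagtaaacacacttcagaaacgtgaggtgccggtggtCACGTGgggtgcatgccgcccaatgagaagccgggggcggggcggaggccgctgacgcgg

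Per1: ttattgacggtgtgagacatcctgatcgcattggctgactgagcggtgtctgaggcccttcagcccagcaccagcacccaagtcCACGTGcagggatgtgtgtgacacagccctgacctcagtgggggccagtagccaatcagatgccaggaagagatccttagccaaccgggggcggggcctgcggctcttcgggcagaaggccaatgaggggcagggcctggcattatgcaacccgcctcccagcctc

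Per3: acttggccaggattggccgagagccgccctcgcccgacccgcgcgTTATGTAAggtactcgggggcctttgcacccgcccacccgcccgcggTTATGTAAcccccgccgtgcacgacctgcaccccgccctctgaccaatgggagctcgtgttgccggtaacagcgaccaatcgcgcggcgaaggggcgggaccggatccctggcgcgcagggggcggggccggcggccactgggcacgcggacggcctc

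A match is a description of these letters, and the windows are short, so elements farther from the start are not covered. Cry1 and Per1, both with an E-box in the window, differed in opposite directions. The windows of Clock, Cry2, Nr1d1, Nr1d2 and Npas2 held none of these motifs, and Per2 is named only.

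Both arms can be placed among all genes by level and difference. Arntl and Cry1 stand at the lower edge of the genes of their level. Of the 2965 genes within 0.5 of the mean level of Cry1, 0.573% were as low or lower. Per1 stands near the upper edge, with 2.53% of the 2492 genes of like level as high or higher. Nr1d1 lies among brighter genes, whose differences spread less, and Clock and Cry2 lie in the dense middle.

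**Figure D3:**
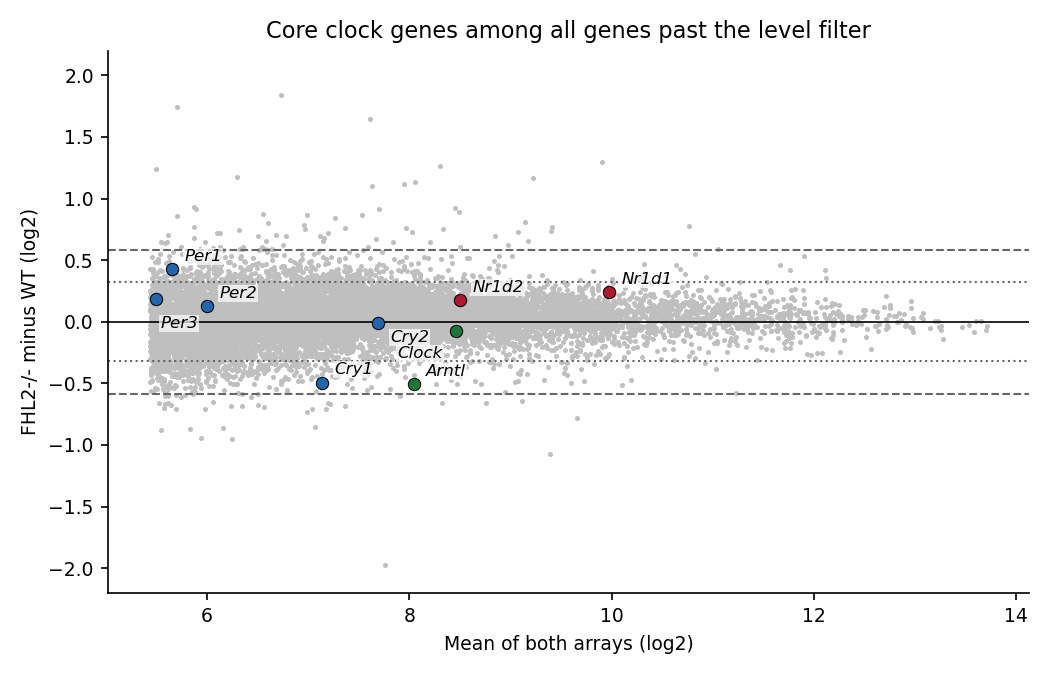
FHL2-/- minus WT difference (log2, vertical axis) against the mean level of both arrays (log2, horizontal axis) for the 11924 genes past the level filter (grey) and the 9 measured core clock genes (green, activators; blue, Cry and Per genes; red, Nr1d genes). Dotted lines mark 0.32 on either side of 0 and dashed lines 1.5-fold. Arntl and Cry1 lie near -0.5, Per1 lies at 0.43 and the other members lie between the dotted lines.

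Genes that act beside the core loops were described from 4 lists, 58 genes outside the core in all, of which 51 were measured and 47 passed the level filter. At 1.5-fold 3 were higher, Dbp, Bhlhe40 and Alas1, and 1 was lower, Tfrc, against 0.621% of all genes higher and 0.335% lower. The lists were chosen with earlier results of these data known, so these counts cannot show an excess among clock genes. Transcription factors of the second loop and of clock output had 8 members past the filter, with 4 above 0 and a median difference of 0.05, which was -0.01 with the trend on level removed. Dbp, an activator at D-boxes that is itself a direct E-box target, was at 7.75 in the FHL2-/- pool and 6.99 in the WT pool, 1.69-fold higher. Bhlhe40, which competes with the activators at E-boxes, was at 8.39 in the FHL2-/- pool and 7.66 in the WT pool, 1.66-fold higher.

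Ciart, a repressor of the ARNTL and CLOCK pair, was at 5.86 in the FHL2-/- pool and 5.46 in the WT pool, and its 2 probes gave differences of 0.40 and 0.37. The probe with 0.37 was at 5.39 in the FHL2-/- pool and 5.03 in the WT pool, both below the filter. The WT value of the other probe lies near the filter, so the size of the Ciart difference is uncertain. Below 0 in this list were Rora, which activates through ROR elements where NR1D represses, at -0.16, and Nfil3, a repressor at D-boxes, at -0.14. Named after their values were seen are Bhlhe41, the relative of Bhlhe40, at 5.01 in the FHL2-/- pool and 4.40 in the WT pool, both below the filter, and the D-box activators Tef at 0.17 and Hlf at -0.11. Dbp, Tef and Hlf, which encode a family of related proteins, therefore lay at 0.76, 0.17 and -0.11.

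Enzymes that modify clock proteins held narrower differences. Kinases, phosphatases and ubiquitin enzymes had 12 members past the filter, 9 above 0, with a median of 0.13 and a range of -0.20 to 0.22, and 0 of them reached a difference of 0.32. The share of all genes above 0 was 59.5%. Csnk1d, the casein kinase that marks PER proteins for breakdown, was at 8.63 in the FHL2-/- pool and 8.45 in the WT pool. Cofactors of clock proteins had 14 members past the filter, 12 above 0, with a median of 0.11. With the trend on level removed, 50.6% of all genes past the filter were above 0, with a median of 0.002. In that setting 9 of the 14 cofactors were above 0 with a median of 0.05, and the median of the enzymes above was 0.07. The exception past 0.32 was Timeless, a replication fork protein named after the fly clock gene, at 5.40 in the FHL2-/- pool and 5.94 in the WT pool, a difference of -0.54 with a dim FHL2-/- value below the filter.

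Liver output genes known for daily rhythms had 14 members past the filter, with a median of 0.16. Above 0 were 9 of them, against 59.5% of all genes. Per1 of the core belongs to this list as well. Alas1, the enzyme of the first step of heme synthesis, was 2.45-fold higher, with 10.55 in the FHL2-/- pool and 9.25 in the WT pool. Cyp7a1, which starts the classical route from cholesterol to bile acids, was at 8.67 in the FHL2-/- pool and 8.14 in the WT pool, a difference of 0.53. Fkbp5, a chaperone cofactor induced by glucocorticoids, was at 7.59 in the FHL2-/- pool and 7.25 in the WT pool, a difference of 0.34. Tfrc, the transferrin receptor, was 1.64-fold lower, with 6.82 in the FHL2-/- pool and 7.53 in the WT pool.

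**Figure D4:**
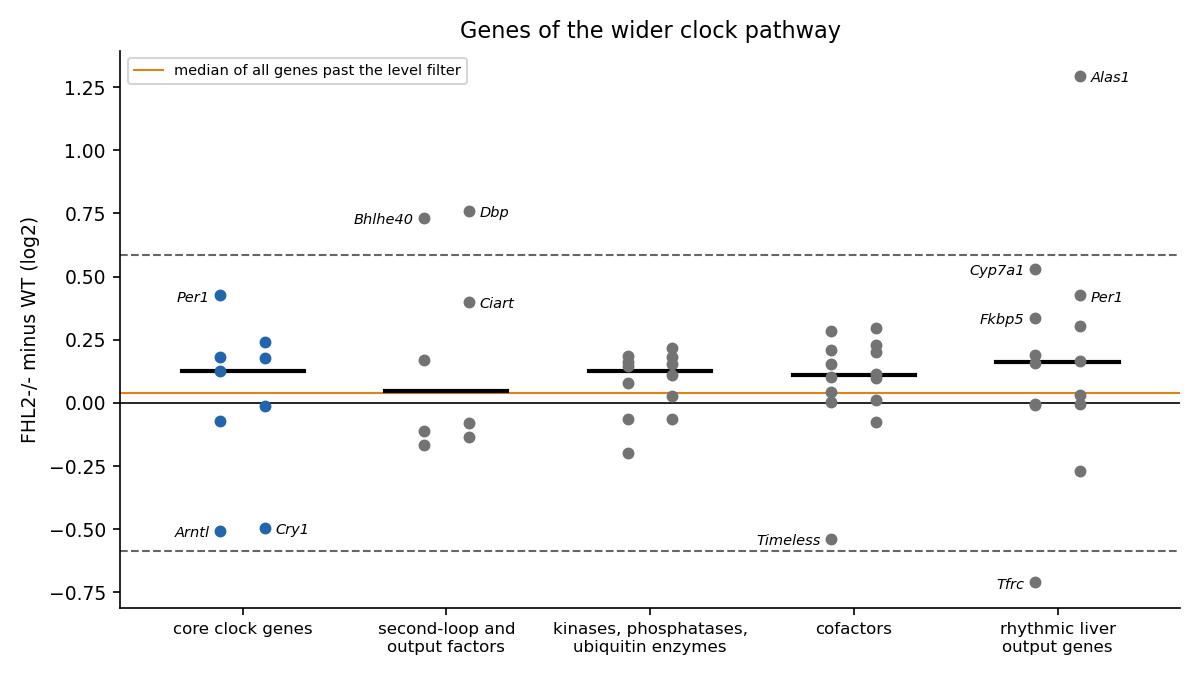
FHL2-/- minus WT difference (log2, vertical axis) of the 9 core clock genes (blue) and of the genes past the level filter in 4 lists of the wider pathway (grey), with each list's median as a black bar and the median of all genes past the filter as an orange line. Genes more than 0.32 from 0 are named and dashed lines mark 1.5-fold. Dbp, Bhlhe40 and Alas1 lie above 1.5-fold, Tfrc lies below it, and the enzyme list stays within 0.32 of 0.

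Liver RNA mixes cell types, and fewer cells of a type cannot be told apart from less RNA per cell. Kupffer cell and macrophage markers were lower in the FHL2-/- pool, with 10 of 10 below 0, a range of -0.41 to -0.01 and a median of -0.27. Their summed unlogged level was 2965 in the FHL2-/- pool and 3450 in the WT pool, and all 10 lay past the level filter by their mean over the arrays. Among all genes past the filter, 59.5% were above 0. C1qc and Cd163, macrophage genes outside these 10 and outside the planned names, were higher in the FHL2-/- pool, by 0.22 and 0.24. The count of 10 of 10 therefore holds for the markers listed and not for every macrophage gene. The summed level of the 10 hepatocyte markers was 78577 in the FHL2-/- pool and 78938 in the WT pool, with a median difference of -0.06. Their differences ran from -0.14 to 0.53, with 4 of 10 above 0. Clock genes are active in both cell types, and the part of cell composition in the differences of Arntl, Cry1 and Per1 was not tested.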

How the data were processed

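Liver RNA of 2 pools, 300 ng of each as total RNA, was labelled and hybridised to 1 array per pool. The deposited values were assumed to be log2 expression after RMA, and the folds and unlogged sums rest on that. Per the submitters' processing notes, the tools were RMA, Partek 6.4 and Affymetrix Expression Console 1.0, listed without order or role. RMA subtracts background, equalises the distributions of arrays and compresses differences of dim transcripts. The genome build is not given in the sources used here. Of 28853 probes, 21789 had 1 gene symbol in the platform annotation, 1621 had several and 5443 had none, and only the first were named. Of these, 21698 matched the mouse gene table (GRCm38.p6) by Entrez identifier. For genes with several probes, the probe of highest mean was used. Differences were taken with no further scaling and counted at 1.5-fold and at 0.32 on the log2 scale among genes past the 40th percentile of level.

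The members and gene lists were chosen with earlier results of these data known. All members are named. Of other lists, Rora, Dbp, Nfil3, Csnk1d and up to 5 members past 0.32 are named by plan. Bhlhe41, Tef, Hlf, C1qc and Cd163 are named outside that plan. No gene of like pattern is named, since 2 arrays give 1 difference per gene. Alternatives were a common median, lowess removal of the trend on level (span 0.3, statsmodels 0.14.6), the mean of a gene's probes, no filter, a filter at the 60th percentile, and arm means. The steps were checked on simulated data. The number of arrays limits the precision.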

Additional observations from a re-analysis of the deposited data

How the results depend on the processing

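All 27 values of the 9 members under the common median, the lowess correction and the mean of probes moved by at most 0.07, against an SD between probes of 0.143. The mean of probes cannot move a member, since each had 1 probe. Only Cry2 turned direction, to 0.03 under the common median. That shift adds 0.04 to every difference. The activator median stayed between -0.35 and -0.25 and the repressor median between 0.14 and 0.22 under these settings. As means the arms were at -0.29 and 0.09. With the threshold at 0.32 on the log2 scale, 1 member was higher and 2 were lower. Of the other clock genes 6 were then higher and 2 lower, since a lower threshold counts more genes. For all genes past the filter the shares at 0.32 were 4.89% higher and 3.8% lower. Because members and lists were chosen with earlier results of these data known, these counts cannot show an excess among clock genes. Without the level filter 4 of the other clock genes were at least 1.5-fold higher. Over all genes 153 were then at least 1.5-fold higher and 133 lower, and with the filter at the 60th percentile 41 and 14. At 0.32 these counts were 1116 and 1235 without the filter, 320 and 151 with the stricter filter, and 464 and 526 with the lowess correction. Higher genes made up 53.5% of those past 1.5-fold without the filter and 74.5% with the stricter filter. The balance of directions thus depended on level, and at 0.32 lower genes were the majority without the filter and with the lowess correction. The median of the second-loop list turned to -0.08 with the mean of probes, without the filter and with the stricter filter. It then held 7, 11 and 7 members. No paired analysis was possible because each group holds 1 array. Per1, Per3 and Ciart are limited by their dim signal.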

Other observations

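Markers of other cell types in these pools had values as follows. Sinusoidal endothelial markers had a median difference of 0.13, with 5 of 6 above 0. Stellate cell and fibroblast markers were at -0.08, with 2 of 6 above 0. Lymphocyte markers were at -0.12, with 2 of 6 above 0 and 4 of 6 past the level filter. Bile duct markers were at 0.15, with 3 of 4 above 0 and 3 of 4 past the filter. The 1 measured red blood cell marker was at 0.29. Skeletal muscle and fat cell markers had medians of -0.04 and -0.17 over 3 and 2 genes, of which 2 and 1 passed the filter. The medians of lists with genes below the filter rest in part on dim values. Of all genes past the filter, 59.5% were above 0.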
